A study of Mus musculus with 6 samples.

Results

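Mitochondrial fatty acid oxidation and ketone body use were followed through 34 genes in the kidneys of fasted WT and Selenbp1-KO mice. A gene was included where non-control probes of the array carried its name. These probes numbered 61 of the 56605 on the array, and the 34 genes were among 36778 gene names tested. RNA of the left kidney of each of 6 male C57BL/6J mice, 3 WT and 3 Selenbp1-KO, all 8 weeks old and fasted for 20 h, was hybridized to its own one-color array. The Selenbp1-KO line is a knockout for which no tissue-specific driver is named. The WT mice were purchased from a supplier, whereas the knockout line was generated in earlier work, so the 2 genotypes were not littermates. Source of the mice and genotype therefore cannot be told apart. All mice were fasted, so no fed level was measured here. All 6 arrays lay on 1 slide, with WT replicates 2 and 3 in row 1 and WT replicate 4 and the 3 Selenbp1-KO replicates in row 2. Whole kidney was measured, so fewer cells of a type and less RNA per cell cannot be told apart. Every value per array is the log2 signal, that is the log2 of the intensity minus the log2 of that array's 75th percentile over non-control spots, and every difference is Selenbp1-KO minus WT on this scale. A gene was read by its brightest probe, and levels of different probes are not compared.

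During fasting, fatty acids released from fat become a main fuel of the kidney, and the proximal tubule, which is rich in mitochondria, oxidizes most of them. An acyl-CoA synthetase activates the fatty acid, the carnitine shuttle carries it into the mitochondrial matrix, and repeated rounds of dehydrogenation, hydration, a further oxidation, and thiolysis shorten it to acetyl-CoA. The kidney also burns ketone bodies from the liver through 3-hydroxybutyrate dehydrogenase and succinyl-CoA transferase. Many genes of this pathway are known targets of Pparα, the receptor that senses fatty acids in fasting.

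The targeted gene checked the labels. The Selenbp1 log2 signal was 7.07, 7.02, and 7.02 for WT (replicates 2, 3, and 4, always in this order) and 4.13, 3.98, and 4.10 for the knockouts (replicates 1, 2, and 3), and each array has the genotype of its label. All 13 proximal tubule, 10 distal nephron, and 7 glomerulus markers were well above background on all 6 arrays. The 75th percentile of the intensity ranged from 477 to 751, and 51.8% to 55.5% of the non-control spots of an array were well above background. Of the 34 genes, all were well above background on all 6 arrays, and no spot of their brightest probes was saturated or flagged.

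The probes that read the largest and the opposite difference among the acyl-CoA synthetases are shown first. Acsl4, which prefers arachidonic acid, was read by 3 probes on chromosome X of mm9, and 2 of them overlap on the minus strand. The first spans 138755198 to 138755257 and the second 138755214 to 138755273. Capitals mark the 44 positions that both cover, of which 43 are identical, with the substitution A38T from the first to the second probe, counted from 1 at the 5′ end of the first. They are printed because each is a separate reading of nearly the same stretch of the transcript.
Acsl4 first probe: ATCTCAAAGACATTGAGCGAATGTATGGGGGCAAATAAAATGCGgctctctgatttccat
Acsl4 second probe: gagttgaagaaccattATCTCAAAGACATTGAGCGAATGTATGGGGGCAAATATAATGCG
Acsl5, a synthetase of mitochondria and the endoplasmic reticulum, was read by a probe whose 60 bases span 589 bases of chromosome 19 of mm9, 55368743 to 55369331 on the plus strand, so 529 bases between its ends are not in the probe.
Acsl5 probe: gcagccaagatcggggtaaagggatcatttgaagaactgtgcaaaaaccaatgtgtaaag

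On the log2 signal defined above, none of the 34 genes passed the threshold of the methods between the genotypes, against 7.98% of all probes tested. That threshold is an unadjusted p under 0.05 in limma. The lowest unadjusted p of limma was 0.0933, for Acad11, and the lowest adjusted p was 0.302. With the methods' t-test on the same values 3 genes were under 0.05 before adjustment, Cpt1a and Acad11 lower and Cpt1b higher, and none after it, beside 7.09% of all probes under that test. Limma with its trend and robust options put 7 under 0.05 before adjustment (Cpt1a, Acsl4, Acad11, and Acot2 lower, and Acads, Etfb, and Acot13 higher), and none after it, beside 13.4% of all probes in that fit. Differences ran from −0.29 for Acsl4 to 0.17 for Acads. All 34 of the 95% intervals lay within a difference of 1 in either direction, and 31 lay within 0.5. The lowest bound was −0.70 and the highest 0.47. A difference of 1, which is a 2-fold change of the signal, was outside every interval. In the reported fit, differences of up to about 0.26, the median distance from a difference to its bound, could not be told from 0. This limit belongs to that fit, since the trend and robust options put 7 genes under 0.05 with the same differences. The absence of genes past the threshold also belongs to the scaling used here. On the authors' deposited table, the same threshold in limma called 5 of the 34 genes, beside 8.36% of all probes. Slc22a5, Cpt1a, Cpt2, and Acad11 were lower there and Cpt1b was higher, with none under 0.05 after adjustment (lowest adjusted p = 0.447).

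**Figure D1:**
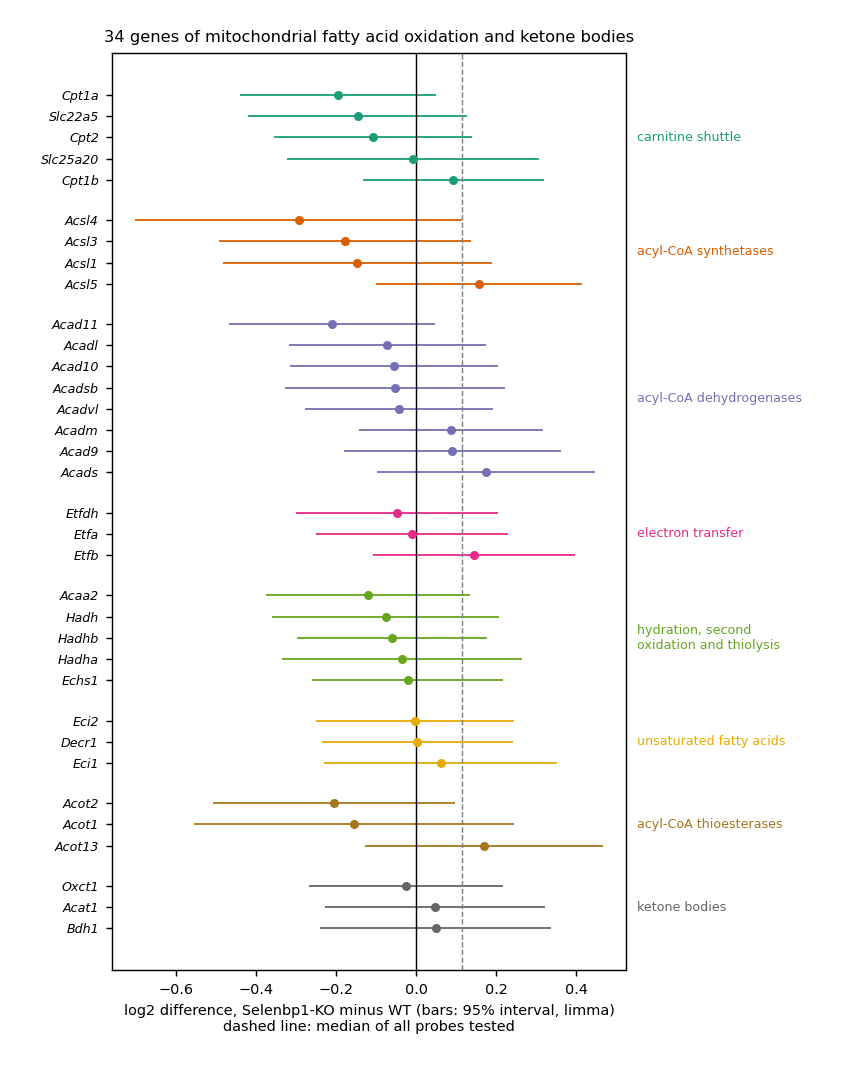
Log2 difference, Selenbp1-KO minus WT, of the 34 genes (points) with the 95% interval of limma (bars), ordered by role and then by size. Every interval includes 0, the points run from −0.29 (Acsl4) to 0.17 (Acads), and the dashed line is the median of all probes tested, 0.11.

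The differences leaned to the lower side in number but were small. Of the 34 genes, 23 had a difference below 0 and 11 above, against 33.8% below 0 among all probes tested and 49.2% among those well above background throughout at least 1 genotype. Their median was −0.038, beside 0.11 over all probes and 0.0073 over the 26815 probes well above background on all 6 arrays. In 7 genes the 3 Selenbp1-KO values did not overlap the 3 WT values, 2 lower and 5 higher, against 13.3% of all probes in either direction and 4.06% with lower Selenbp1-KO values.

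The 3 Selenbp1-KO arrays did not share the lean. The median over the 34 genes of the deviation from the mean of the 6 arrays was 0.036, −0.0018, and 0.0054 for the WT arrays and −0.014, −0.10, and 0.060 for the knockouts. Selenbp1-KO replicate 2 had the lowest of the 6 values in 18 genes, whereas Selenbp1-KO replicate 3 had the highest in 11 and the lowest in 0, so the 2 mice at the ends of the range share a genotype. Without Selenbp1-KO replicate 2 the median difference was 0.0044 and 16 of 34 genes were below 0. Without Selenbp1-KO replicate 3 it was −0.065, with 26 below 0.

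**Figure D2:**
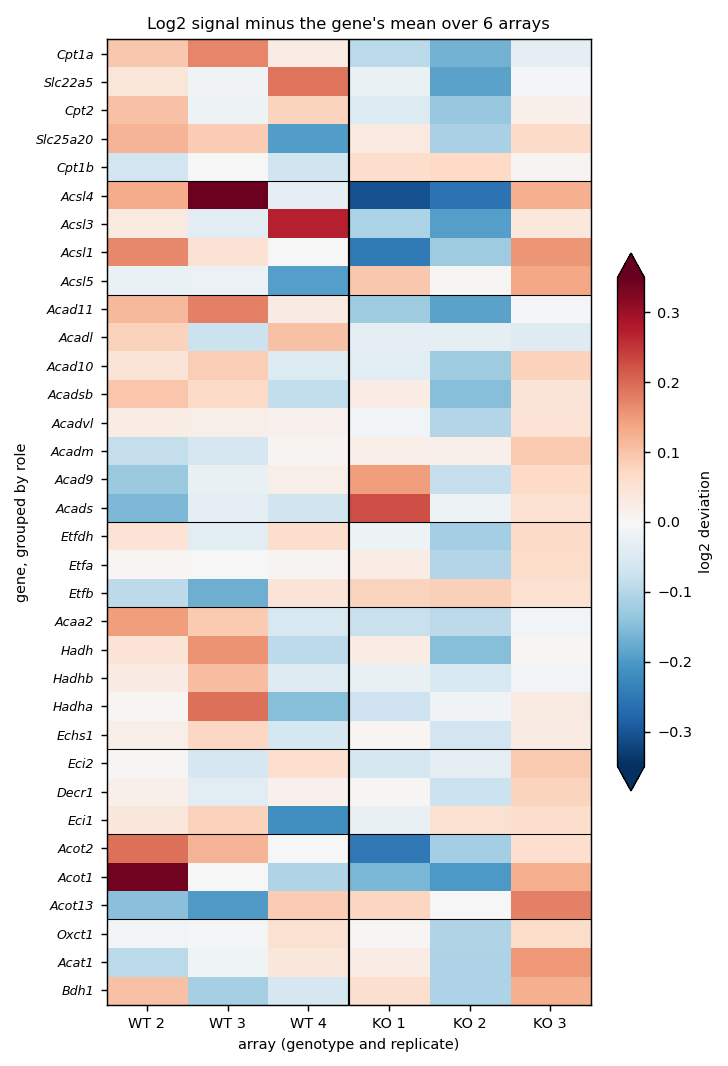
Log2 signal of each gene minus its mean over the 6 arrays (color), with genes in rows by role and arrays in columns, the 3 WT arrays left of the vertical line. Selenbp1-KO replicate 2 is the bluest column, with the lowest value in 18 of 34 genes, and Selenbp1-KO replicate 3 is lowest in 0.

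Markers of other cells varied more between the same arrays than the 34 genes did. The median deviation of 9 fat markers was −0.22, 0.18, and −1.16 for the WT arrays and 0.73, 1.65, and −0.73 for the knockouts. It was highest in Selenbp1-KO replicate 2, where the oxidation genes were lowest. In WT replicate 4, where it was lowest, the oxidation genes were at 0.0054. Medians of the red blood cell markers (0.65) and macrophage markers (0.26) were also highest in Selenbp1-KO replicate 2. The summed signal of the fat markers, in multiples of the 75th percentile, was 38.8 to 84.8 in WT and 46.5 to 168 in Selenbp1-KO arrays. All 9 were well above background on all 6 arrays, and 0 of 9 passed the threshold. Red blood cell markers passed it in 4 of 6 (Hba-a1, Hbb-b1, Hbb-bt, and Alas2, all higher), with a summed signal of 295 to 390 in WT and 426 to 650 in Selenbp1-KO arrays. Macrophage markers passed it in 5 of 7 (Cd68, C1qa, C1qb, C1qc, and Ctss, all higher), with summed signals of 12.7 to 14.4 and 15.2 to 16.7. Proximal tubule markers, by contrast, passed it in 0 of 13, with a median difference of 0.025 and summed signals of 1426 to 1670 in WT and 1532 to 1582 in Selenbp1-KO arrays. Among 10 distal nephron and 7 glomerulus markers, Pvalb and Synpo passed it, both higher. Of the striated muscle, liver, and adrenal cortex markers none did. Across all probes tested, 7.98% passed. The part of fat, blood, and macrophage RNA in the values of the 34 genes was not tested.

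**Figure D3:**
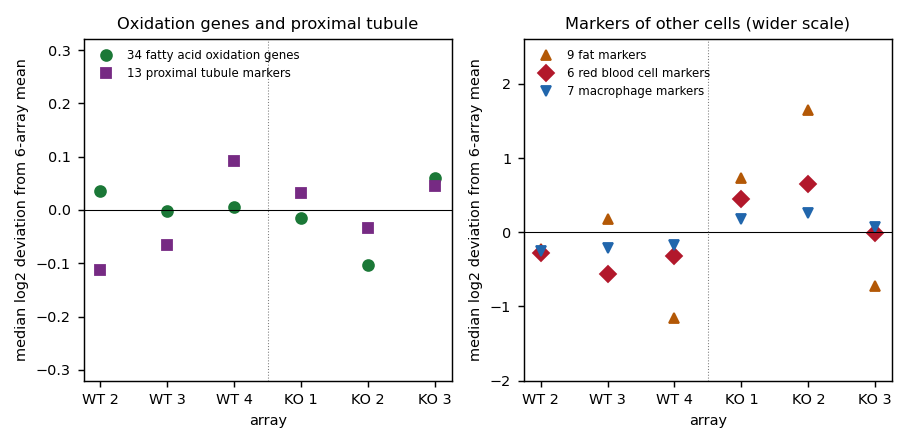
Median log2 deviation from the mean of the 6 arrays for the 34 oxidation genes and 13 proximal tubule markers (left) and for markers of fat, red blood cells, and macrophages (right, on a wider scale), 1 point per list and array; KO stands for Selenbp1-KO. The 34 genes span −0.10 to 0.060 while the fat markers span −1.16 to 1.65.

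The carnitine shuttle comprised 5 genes, 4 of them with a difference below 0 and 0 past the threshold. Cpt1a, the enzyme of the outer membrane that controls the entry of long-chain fatty acids (NM_013495, chromosome 19, 3385374 to 3385433 of mm9), had log2 signals of 5.39, 5.47, and 5.32 in WT and 5.20, 5.13, and 5.26 in Selenbp1-KO kidneys. All 3 Selenbp1-KO values lay below the lowest WT value. The difference was −0.19 (95% interval −0.44 to 0.051, adjusted p = 0.315). Against WT replicate 4 alone, the only WT array in the row of the Selenbp1-KO arrays, it was −0.12. The study lists Cpt1a among the genes lower in the knockout at the methods' threshold. On the authors' deposited table Cpt1a differed by −0.26 here (limma, unadjusted p = 0.011, adjusted p = 0.447). Cpt1b, the isoform best known from muscle (NM_009948, chromosome 15, 89246836 to 89246895 of mm9), showed the opposite order, with 0.23, 0.30, and 0.23 in WT and 0.36, 0.37, and 0.31 in Selenbp1-KO kidneys. Its groups were separated by a narrow gap, and the difference was 0.093 (95% interval −0.13 to 0.32, adjusted p = 0.649). Slc22a5, which imports carnitine across the plasma membrane, differed by −0.15, and its second probe by −0.15. Cpt2, which returns the acyl group to CoA in the matrix, differed by −0.11 and −0.12 on its 2 probes. The translocase Slc25a20 differed by −0.0078, a value whose sign changed in 4 of 18 alternatives of processing.

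Of the 4 acyl-CoA synthetases, 3 had a difference below 0 and Acsl5 one above. The brightest Acsl4 probe (NM_207625, chromosome X, 138752602 to 138752661 of mm9) read 2.87, 3.09, and 2.71 in WT and 2.44, 2.48, and 2.87 in Selenbp1-KO kidneys. Selenbp1-KO replicate 3 lay within the WT range while the other two lay below it. The difference, the largest in size among the 34 genes, was −0.29 (95% interval −0.70 to 0.11, adjusted p = 0.369). Without Selenbp1-KO replicate 3 it was −0.43 and passed the threshold, beside 6.67% of all probes in that fit. It was −0.20 without WT replicate 3 and −0.11 against WT replicate 4 alone. The 2 overlapping probes printed above gave −0.30 (adjusted p = 0.436) and −0.31 (adjusted p = 0.279), so 3 probes at 2 places of the transcript differed by nearly the same amount. Values of the second of them were −0.50, −0.33, and −0.63 in WT and −0.87, −0.89, and −0.63 in Selenbp1-KO kidneys, and these did not overlap, by a gap of 0.0047.

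Acsl5 was the synthetase with the opposite sign. Its probe printed above (NM_027976) read 1.74, 1.74, and 1.57 in WT and 1.86, 1.77, and 1.90 in Selenbp1-KO kidneys. The groups did not overlap, and the difference was 0.16 (95% interval −0.10 to 0.42, adjusted p = 0.457). It was 0.10 without WT replicate 4 and 0.27 against WT replicate 4 alone. A second Acsl5 probe, also well above background, differed by −0.064. The third, not well above background on any array, was the only one of the 61 probes with an unadjusted p under 0.05 (adjusted p = 0.279). Acsl1, the main synthetase for oxidation in many tissues, differed by −0.15, and Acsl3, which serves lipid droplets, by −0.18, whereas its dimmer probe differed by 0.15.

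The acyl-CoA dehydrogenases, which take the first electrons from the acyl chain, were the largest role, with 8 genes. Differences were below 0 in 5 and above in 3, and groups did not overlap in 3 of the 8. Acad11 (NM_175324, chromosome 9, 104029734 to 104029793 of mm9) had log2 signals of 5.93, 6.00, and 5.85 in WT and 5.70, 5.63, and 5.82 in Selenbp1-KO kidneys. Every Selenbp1-KO value was below every WT value, though the highest of the first and the lowest of the second were 5.82 and 5.85. The difference was −0.21 (95% interval −0.47 to 0.048, adjusted p = 0.302), and −0.13 against WT replicate 4 alone. All 4 Acad11 probes differed in the same direction, from −0.31 to −0.18, and 1 of them was not well above background on any array.

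Acads, specific for short chains (NM_007383, chromosome 5, 115560531 to 115560590 of mm9), went the other way, with 4.10, 4.22, and 4.19 in WT and 4.48, 4.24, and 4.31 in Selenbp1-KO kidneys. Selenbp1-KO replicate 1 was the highest and replicate 2 was only just above the highest WT value. The difference was 0.17 (95% interval −0.098 to 0.45, adjusted p = 0.433), and 0.10 without Selenbp1-KO replicate 1. Acadm, the medium-chain enzyme (NM_007382, chromosome 3, 153585469 to 153585528 of mm9), had 7.06, 7.08, and 7.15 in WT and 7.16, 7.16, and 7.23 in Selenbp1-KO kidneys. Its groups also did not overlap, and the difference was 0.088 (95% interval −0.14 to 0.32, adjusted p = 0.675), which became −0.028 after quantile normalization and 0.034 against WT replicate 4 alone. Acadvl and Acadl, which act on very long and long chains, differed by −0.042 and −0.072. Acadsb, which acts on short branched chains, differed by −0.053 and Acad10 by −0.056, and both turned above 0 against WT replicate 4 alone. Acad9, better known for the assembly of respiratory complex I, differed by 0.090, and its 4 probes disagreed in sign, from −0.41 to 0.097.

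Electrons from these enzymes pass to the flavoprotein made of Etfa and Etfb and through Etfdh to ubiquinone. The Etfb probe (NM_026695, chromosome 7, 50713078 to 50713137 of mm9) read 7.62, 7.54, and 7.76 in WT and 7.79, 7.79, and 7.76 in Selenbp1-KO kidneys. Selenbp1-KO values were close together and above all WT values, and WT replicate 4 was the nearest, at a gap of 0.0079. The difference was 0.14 (95% interval −0.11 to 0.40, adjusted p = 0.496), 0.095 without WT replicate 3, and 0.027 against WT replicate 4 alone. A second Etfb probe differed by 0.15, and its groups also did not overlap, by a gap of 0.097. Etfa, the partner subunit, differed by −0.0098 and Etfdh by −0.047.

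The 5 genes of hydration, the second oxidation, and thiolysis all had differences below 0, from −0.12 to −0.021, although 4 of them, all but Acaa2, had a difference above 0 against WT replicate 4 alone. Acaa2, the thiolase that releases acetyl-CoA (NM_177470), had 7.64, 7.58, and 7.44 in WT and 7.42, 7.40, and 7.48 in Selenbp1-KO kidneys. Selenbp1-KO replicate 3 lay above WT replicate 4, so the groups overlapped. The difference was −0.12 (95% interval −0.37 to 0.13, adjusted p = 0.591). It was −0.0033 against WT replicate 4 alone and −0.077 without WT replicate 2. Hadha and Hadhb, the 2 subunits of the trifunctional protein for long chains, differed by −0.034 and −0.061, and all 3 Hadhb probes had the same sign. Hadh, the dehydrogenase for shorter 3-hydroxyacyl chains, differed by −0.076 and the hydratase Echs1 by −0.021.

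Unsaturated fatty acids need further enzymes that move or remove double bonds. Eci1, an isomerase (NM_010023, chromosome 17, 24574515 to 24575912 of mm9), had 6.10, 6.14, and 5.84 in WT and 6.03, 6.11, and 6.12 in Selenbp1-KO kidneys. WT replicate 4 was the lowest of the 6 and the other five lay close together. The difference was 0.062 (95% interval −0.23 to 0.35, adjusted p = 0.835), 0.25 against WT replicate 4 alone, and −0.048 after quantile normalization. Its relative Eci2 and the reductase Decr1 differed by −0.0026 and 0.0033, the values nearest to 0 among the 34 genes, and their signs changed in 5 and 7 of 18 alternatives.

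Thioesterases release the fatty acid from CoA again. The mitochondrial Acot2 (NM_134188, chromosome 12, 85334553 to 85334612 of mm9) had 3.42, 3.34, and 3.22 in WT and 2.98, 3.11, and 3.28 in Selenbp1-KO kidneys. Selenbp1-KO replicates 1 and 2 lay below all WT values, and replicate 3 lay within the WT range. The difference was −0.21 (95% interval −0.51 to 0.096, adjusted p = 0.399). It was −0.13 without Selenbp1-KO replicate 1 and −0.10 against WT replicate 4 alone. Its cytosolic relative Acot1 differed by −0.16, and Acot1 and Acot2 are close paralogs, so each probe may also read the other transcript. The longest run the 2 probes share is 6 bases. Neither probe was compared with the other transcript, so this run does not decide the question. Acot13 differed by 0.17, the second highest value among the 34 genes, which turned to −0.0048 against WT replicate 4 alone.

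Ketone bodies are used by 3 of the genes. Bdh1, which oxidizes 3-hydroxybutyrate to acetoacetate (NM_175177, chromosome 16, 31457378 to 31457437 of mm9), had 4.56, 4.34, and 4.40 in WT and 4.51, 4.35, and 4.58 in Selenbp1-KO kidneys. Highest and lowest values of both genotypes were nearly the same. The difference was 0.049 (95% interval −0.24 to 0.34, adjusted p = 0.872), its second probe gave 0.050, and quantile normalization turned the first to −0.010. Oxct1, the transferase that activates acetoacetate and commits it to oxidation, differed by −0.025 and −0.034 on its 2 probes. Acat1, the thiolase that splits acetoacetyl-CoA, differed by 0.046, with a change of sign after quantile normalization.

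Readings from several probes gave a check that did not depend on the choice of the brightest. Of the 34 genes, 17 had more than 1 probe. All probes of a gene had the same sign in 10 of the 17, and all probes well above background on every array did so in 12. Median standard deviations of the log2 signal within a genotype were 0.082 in WT and 0.088 in Selenbp1-KO kidneys (n = 3 each), beside a median absolute difference of 0.082 between the genotypes.

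How arrays were brought to 1 scale changed the count of genes past the threshold. After quantile normalization, which forces the same distribution on all arrays, the median of all probes moved from 0.11 to 0.00 and that of the 34 genes from −0.038 to −0.11. Under it, 7 of the 34 had an unadjusted p under 0.05: Slc22a5, Cpt1a, Cpt2, Acadl, Acad11, and Acaa2 were lower and Cpt1b was higher. Under the same scaling 8.37% of all probes were called in either direction and 3.87% called lower. The lowest adjusted p among the 34 was then 0.471, and 5 genes (Acadm, Eci1, Decr1, Bdh1, and Acat1) changed from a difference above 0 to one below. Bright probes moved more than dim ones. Acaa2 went from −0.12 to −0.28 and Decr1 from 0.0033 to −0.10, whereas the dimmer Cpt1b stayed at 0.093 and Acsl5 at 0.16. The shares over all probes include many dim probes and are not matched in signal to the 34 genes. The authors' deposited table, which has the same distribution on all arrays, gave 4 lower genes (Slc22a5, Cpt1a, Cpt2, and Acad11) and Cpt1b higher, with a median of −0.088, beside 8.36% of all probes called in either direction and 3.75% called lower. Tested among probes well above background alone, Cpt1a and Acad11 had an unadjusted p under 0.05, both lower, beside 9.96% of those probes called in either direction and 3.52% called lower. With the slide row as a block, the comparison rests on WT replicate 4, because row 1 holds WT arrays only. The median of the 34 genes was then −0.0040, beside 0.056 over all probes in that fit, and 18 of 34 were below 0. In none of the 18 alternatives was an adjusted p of any of the 34 genes under 0.05, with 0.176 the lowest.

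**Figure D4:**
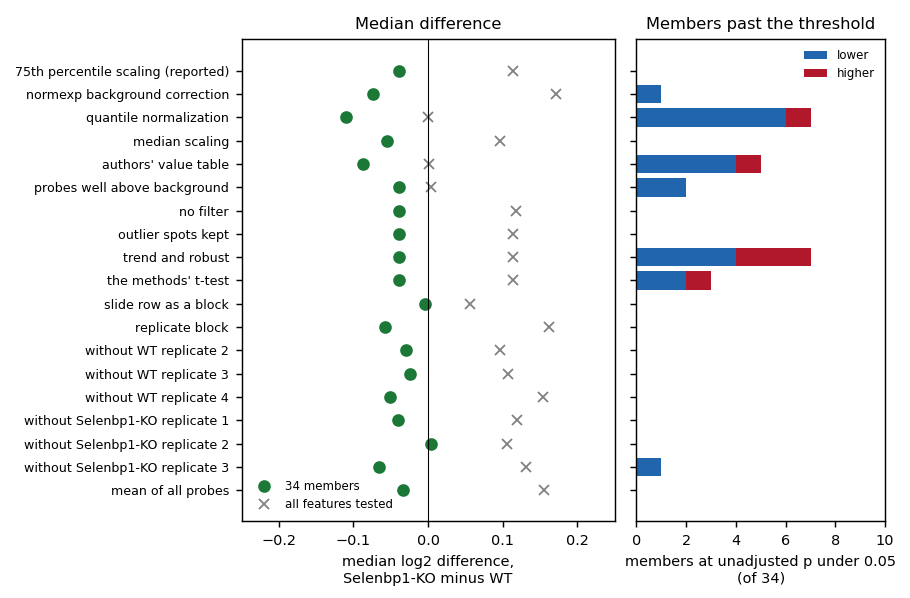
Median log2 difference of the 34 genes and of all features tested (left) and number of the 34 genes with an unadjusted p under 0.05 (right, stacked by direction), for the reported scaling and 18 alternatives of processing. The median of the 34 genes runs from −0.11 under quantile normalization to 0.0044 without Selenbp1-KO replicate 2, and the count from 0 to 7.

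The pathway's other genes were read from a list of 48: ketone synthesis and transport, carnitine synthesis, malonyl-CoA, uptake and binding of fatty acids, further synthetases and thioesterases, oxidation of branched-chain acyl-CoA, propionyl-CoA, and the fuel switch. Differences were below 0 in 19 and above in 29, with a median of 0.031. Among all probes 33.8% were below 0, and 49.2% among those well above background throughout at least 1 genotype. Of the 48 genes, 1 passed the threshold, beside 7.98% of all probes. This was Hmgcll1, a relative of the lyase of ketone synthesis (higher, adjusted p = 0.279), whose probe was not well above background on any array, so no fold is given. Among well measured genes the largest differences were −0.31 for Aacs, which activates acetoacetate in the cytosol, 0.25 for the medium-chain synthetase Acsm3, −0.24 for Bbox1, the last enzyme of carnitine synthesis, and 0.21 for the transporter Slc16a6. None of these 4 passed the threshold (adjusted p of at least 0.328). Pdk4, a fasting gene that spares glucose and named here for that role, differed by 0.085.

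Promoters were searched for the elements that Pparα and related receptors bind. RefSeq promoter windows (assembly GRCm38.p6, 300 bases, most of them before the start of the transcript) were matched by symbol for 28 of the 34 genes. A direct repeat of AGGTCA spaced by 1 base was in 0 of the 28 on either strand, also with 1 mismatch allowed, against 0.0396% and 0.554% of all 32851 windows. The extended single site TNAAGGTCA, which can overlap such a repeat, was in 0 of the 28 and in 1.28% of all windows. This says only that these letters are not in these windows.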

How the data were processed

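Total RNA of 6 left kidneys was labeled with Cy3 and hybridized to Agilent arrays of 62976 spots. The authors deposited the Feature Extraction output of each array (version 10.7.1.1 in the file headers, 9.5.1.1 in the submitters' processing notes), whose intensity per spot is linear, background-subtracted, and not scaled between arrays. Each spot has a p-value against its background, computed by that software before the authors deposited the files. A deposited table of 1 intensity per probe holds values brought to the same distribution on all arrays by a method not given in the sources used here. The labels name TRIzol and the methods an RNeasy kit for the extraction, and which was used is not settled. The methods describe 3 mice of each genotype, and the labels give 1 kidney sample per array. The series' design text names a smaller array format than the files hold, and the files were followed.

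From the 59305 non-control spots, the log2 intensity was set relative to the 75th percentile of its array, spots flagged as outliers were left out, and spots of a probe were averaged. Tests covered the 56097 of 56605 probes that any array detected at p under 0.05, with no floor or pseudocount. The genotypes were compared by the two-sided test of limma 3.58.1 (lmFit, then eBayes) under R 4.3.3. As the methods set it, a gene passed at an unadjusted p under 0.05, with Benjamini–Hochberg adjustment over all probes beside it. Intervals are at 95%. The accession of each of the 34 brightest probes matched the RefSeq symbol of its gene. Coordinates are those of the files (mm9), and probes were not assigned to exons or UTRs here.

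The 34 genes and all lists were chosen with earlier results of these data known. Full statistics are given for genes past the threshold, genes whose genotypes did not overlap, Cpt1a, and the gene of each role with the largest absolute difference, 12 in all. Of the other 48 genes of the pathway, those past the threshold and the 4 with the largest absolute difference among well measured genes are named. The 18 alternatives were normexp background correction (offset 50), quantile normalization, median scaling, the authors' table, 2 other filters, flagged spots kept, trend and robust estimation (statmod version 1.5.0), the methods' t-test, slide row and replicate number as blocks, each array left out, and the mean of all probes. Groups of 3 were too small for an outlier test. Limma was tested on simulated data with known changes. No array was left out. Individual values of 2 listed genes are not reported here. The study's other measurements were not analysed here.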

Additional observations from a re-analysis of the deposited data

How the results depend on the processing

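The number of the 34 genes under an unadjusted p of 0.05 was 0 as reported, 7 after quantile normalization, 7 with trend and robust estimation in limma, 5 with the authors' value table, 3 with the methods' t-test, 2 among probes well above background, 1 after normexp correction, and 0 to 1 when each array was left out in turn. The share of all probes under 0.05 was 7.98% as reported and, in the same order, 8.37%, 13.4%, 8.36%, 7.09%, 9.96%, 11.2%, and 3.61% to 31.3%. Genes with a difference below 0 numbered 16 to 26 and their median was −0.065 to 0.0044 when each array was left out, and the median was −0.11 after quantile normalization. Of the other 48 pathway genes, 1 was under 0.05 as reported, 6 after quantile normalization, 4 with the authors' table, 3 with trend and robust estimation, 3 with the mean of all probes, 2 with the methods' t-test, 2 with the replicate block, 0 among probes well above background, and 1 to 3 with an array left out. Their median was −0.038 after quantile normalization, −0.019 with the authors' table, and −0.015 to 0.037 with an array left out. Signs changed for Acadm (−0.028) and Bdh1 (−0.010) after quantile normalization, and for Eci1 after quantile normalization (−0.048), with the authors' table (−0.019), and with the replicate block (−0.00255). With an array left out, Bdh1 ranged from −0.0012 to 0.11 and Eci1 from −0.030 to 0.12. The other 9 genes with full statistics kept their sign in all 18 alternatives. Why the counts moved was not tested. The genotypes share the replicate numbers 2 and 3 only, and the labels do not say that a number pairs mice. Deviations from the genotype means correlated at 0.16 and 0.21 for these 2 numbers over 26815 probes, and arrays without a shared number reached as much (0.25 for WT replicate 3 with Selenbp1-KO replicate 1, and 0.20 for WT replicate 4 with Selenbp1-KO replicate 2), so the numbers were not taken to pair the mice. The replicate block left the number of the 34 genes under 0.05 at 0, with a median of −0.058, and raised the number of all probes under 0.05 from 4479 to 18430. The 3 arrays per genotype limit the precision, and signal over background limits the dim probes.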
